A study of Mus musculus with 21 samples.

Results

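The 38 interferon-stimulated genes examined here are a fixed list of mouse gene symbols that includes the OAS, IFIT, MX and guanylate-binding families, the ISG15 system, RNA sensors and the transcription factors of the interferon response. They were taken by symbol from a count table of 24421 genes. All 38 were present, and all 38 were among the 12786 genes that had enough reads to be tested. The RNA came from primary B cell precursors of mouse bone marrow, grown with IL-7 and transduced by spinoculation with a MIGR1 retrovirus. The study asked how early transformation by 2 leukemia oncogenes acts on such cells, and the comparisons here ask how interferon-stimulated genes differ between the oncogenes and the control. EV cells received MIGR1 without an insert, BCR-ABL1 cells received BCR-ABL1p210 MIGR1, which encodes the human fusion kinase, and C-MYC cells received C-MYC MIGR1, which encodes the mouse transcription factor. Every group had the genotype 53BP1-/- on C57BL/6 and was harvested between days 7 and 9 after transduction, with 2 libraries per group and 6 in all. All 3 groups had therefore been exposed to retrovirus and lacked 53BP1, and no library came from cells without virus. Dead cells were removed after harvest, and the sources used here name no sort for transduced cells or for B lineage cells.

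Interferons are secreted antiviral cytokines. Type I interferon acts through the receptor IFNAR1 and IFNAR2 and the kinases JAK1 and TYK2 to assemble a complex called ISGF3, which contains STAT2 and IRF9 and binds a DNA element called ISRE. Interferon gamma acts through IFNGR1 and IFNGR2 and the kinases JAK1 and JAK2, and its targets, with IRF1 among the first, carry an element called GAS. The induced genes encode sensors of viral RNA, enzymes and GTPases that block viral replication, and the factors STAT2, IRF9 and IRF7 themselves.

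Promoter sequences of RefSeq on GRCm38.p6, covering 250 bases before to 50 bases after each gene start, were found for 29 of the 38 genes. The other 9 were Dhx58, Zbp1, Oas2, Mx1, Mx2, Usp18, Parp9, Parp14 and Rtp4. An ISRE was read as GAAA, any 2 bases and GAAA, on either strand, and 14 of the 29 promoters (48.3%) held at least 1 match, against 3.99% of the promoters of 27025 genes. A GAS, read as TTCNNNGAA on either strand, was present in 7 of the 29 (24.1%) and in 9.55% of all promoters. The E-box CACGTG, the element best known for MYC binding, occurred in 0 of the 29 and in 8.09% of all promoters. Overlapping matches were kept, and a match describes the letters only. The windows below are shown because they are the control elements by which several of the genes described here are known. Each lies before the RefSeq gene start and is written from 5′ to 3′ along the gene's strand with up to 20 bases on each side, and capitals mark the ISRE matches of either strand or, for Irf1, the GAS match.
Isg15 (chr4:156200855-156200916, minus strand, first matched base 78 bases before the start), the ubiquitin-like modifier, with 3 overlapping matches.
Isg15: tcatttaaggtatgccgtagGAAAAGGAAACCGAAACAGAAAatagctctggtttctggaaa
Ifit1 (chr19:34640765-34640833, plus strand, 104 bases before the start) and Ifit3 (chr19:34583353-34583436, plus strand, 156 bases before the start), which encode RNA-binding proteins, with 2 matches each.
Ifit1: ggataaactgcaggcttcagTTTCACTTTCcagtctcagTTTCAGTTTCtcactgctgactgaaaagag
Ifit3: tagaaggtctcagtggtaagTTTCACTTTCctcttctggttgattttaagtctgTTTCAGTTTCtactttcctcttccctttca
Oas1a (chr5:120907526-120907565, minus strand, 20 bases before the start), an oligoadenylate synthetase, with 2 overlapping matches.
Oas1a: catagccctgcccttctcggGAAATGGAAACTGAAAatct
Rsad2 (chr12:26456543-26456592, minus strand, 120 bases before the start), which encodes viperin, with 1 match.
Rsad2: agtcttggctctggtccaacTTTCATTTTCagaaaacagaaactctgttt
Gbp2 (chr3:142620584-142620633, plus strand, 59 bases before the start), a guanylate-binding protein, with 1 match. The GENCODE annotation used for gene positions starts this gene earlier, at base 142620602, which lies inside the window.
Gbp2: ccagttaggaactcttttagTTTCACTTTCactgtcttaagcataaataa
Bst2 (chr8:71537567-71537622, minus strand, 130 bases before the start), which encodes tetherin, with 2 overlapping matches.
Bst2: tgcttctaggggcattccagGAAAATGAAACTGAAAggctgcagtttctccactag
Irf1 (chr11:53769904-53769952, plus strand, 90 bases before the start), with 1 GAS match.
Irf1: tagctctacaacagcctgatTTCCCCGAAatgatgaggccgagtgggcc
Against EV, the median log2 fold change in BCR-ABL1 was -0.84 over the 14 genes with a match and -1.34 over the 15 without, and the values for C-MYC were -2.14 and -2.0. These medians are descriptions and were not tested.

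Total counts lay between 20687092 and 24095955 per library, so a count of 0 allows up to 3 counts, or between 0.125 and 0.142 counts scaled to library size (CPM). Replicates differed by more than counting noise in every group, and nothing in the sources ties the libraries to separate animals, so p-values cover the spread between these libraries. Myc, the gene carried by the C-MYC vector, had 3869 and 3277 counts in EV, 7239 and 8381 with BCR-ABL1 and 37920 and 27450 with C-MYC, and was thus highest in the libraries labelled C-MYC. B cell precursor markers such as Cd79a and Ebf1 were high in every library, with summed levels of 9 markers between 4770 and 5530 CPM in EV, 4835 and 5429 with BCR-ABL1 and 2645 and 3232 with C-MYC. EV also held markers of other cells. The 10 myeloid markers summed to between 1227 and 1288 CPM in EV, 154 and 177 with BCR-ABL1 and 233 and 394 with C-MYC. The 8 markers of T and NK cells summed to between 96.9 and 129 CPM in EV, 7.44 and 9.06 with BCR-ABL1 and 3.91 and 5.48 with C-MYC. The 5 stromal markers summed to between 103 and 157 CPM in EV, 4.98 and 6.03 with BCR-ABL1 and 1.75 and 2.56 with C-MYC. The 5 markers of plasmacytoid dendritic cells, which are strong producers of type I interferon, summed to between 3.97 and 5.23 CPM in EV, 1.85 and 2.04 with BCR-ABL1 and 0.449 and 1.20 with C-MYC, and Klk1 was at 0 in all 6 libraries. EV replicate 1 stood above EV replicate 2 for 31 of the 38 interferon-stimulated genes, with a median log2 ratio of 0.50 against -0.02 over the genes tested, and the ratio was largest for Gbp2 (1.66). The corresponding medians were 0.11 between the BCR-ABL1 libraries and -0.23 between the C-MYC libraries. The results against EV are therefore also given without EV replicate 1.

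Interferon-stimulated genes were lower in both oncogene-expressing groups than in EV, and lower in C-MYC than in BCR-ABL1. The summed level of the 38 genes was 2582 and 1704 CPM in EV, 1066 and 981 CPM in BCR-ABL1, and 596 and 655 CPM in C-MYC. In BCR-ABL1, 25 of the 38 genes were lower than in EV and 0 were higher by edgeR's quasi-likelihood test with a Benjamini-Hochberg adjusted p below 0.05, the rule used for every call in the text, while 12.0% of the genes tested were called lower and 5.08% higher. In C-MYC, 35 were lower than in EV and 0 were higher, against 24.5% and 18.6% of the genes tested. No member was higher than in EV at an unadjusted p below 0.05, by DESeq2 or by limma on FPKM in either comparison. Compared directly, 20 of the 38 genes were higher in BCR-ABL1 than in C-MYC and 0 were lower, with backgrounds of 11.9% and 11.5%. At an unadjusted p below 0.05, and by DESeq2, 1 gene (Bst2) was lower in BCR-ABL1, and limma on FPKM called 0.

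The median log2 fold change of the 38 genes was -1.16 in BCR-ABL1 against EV (range -3.62 to -0.14) and -2.14 in C-MYC against EV (range -6.11 to -0.00), while the medians over all genes tested were 0.00 and -0.08. All 38 estimates were below 0 in BCR-ABL1, and 37 were in C-MYC beside that of Bst2, which lay at 0 to 2 decimals and changed sign with the setting. That of Eif2ak2 in BCR-ABL1 turned to 0.18 without EV replicate 1, and neither of these 2 estimates passed. The EV libraries are shared by these comparisons, so the direct contrast carries the difference between the oncogenes, and its median was 0.91 (range -0.83 to 4.21), against 0.00 over all genes tested. Both BCR-ABL1 libraries lay below both EV libraries for 37 of the 38 genes (29.7% of the genes tested), with Eif2ak2 the exception, and both C-MYC libraries did so for 37 (39.1%), with Bst2 the exception. Both BCR-ABL1 libraries lay above both C-MYC libraries for 29 of the 38 genes (35.4% of the genes tested) and below them for 2 (34.5%), namely Bst2 and Ifi44. The myeloid, T and NK cell, stromal and plasmacytoid dendritic cell markers moved with the comparisons against EV, the last with 2 of 3 tested markers lower in each oncogene group. Of the 9 B cell precursor markers, 3 were lower in BCR-ABL1 and 8 in C-MYC than in EV, and 0 were higher by edgeR or DESeq2. Their median log2 fold changes were -0.10 and -0.82. Of all genes tested, 12.0% were called lower in BCR-ABL1 and 24.5% in C-MYC than in EV. The part of all these markers in the results against EV was not tested. Between BCR-ABL1 and C-MYC the myeloid markers ran the other way, with 4 of 10 lower and 0 higher in BCR-ABL1 by edgeR (0 higher at an unadjusted p below 0.05 and by DESeq2). The shares of all genes tested called lower and higher in BCR-ABL1 in that comparison were 11.5% and 11.9%. Of the 8 T and NK cell markers 0 passed there by edgeR or DESeq2 and 2 were higher in BCR-ABL1 at an unadjusted p below 0.05, while 6 of the 9 B cell precursor markers were higher in BCR-ABL1. Of the 5 stromal markers 2, Col1a1 and Col1a2, were higher in BCR-ABL1 (edgeR adjusted p = 0.0143 and 0.046), with a median log2 difference of 1.36 over the 5, and of the 3 tested plasmacytoid dendritic cell markers 1, Pacsin1, was higher (edgeR adjusted p = 0.0223). The part of these markers in the difference between the oncogenes was not tested either. In bulk RNA, fewer cells of a type and less RNA per cell cannot be told apart.

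**Figure D1:**
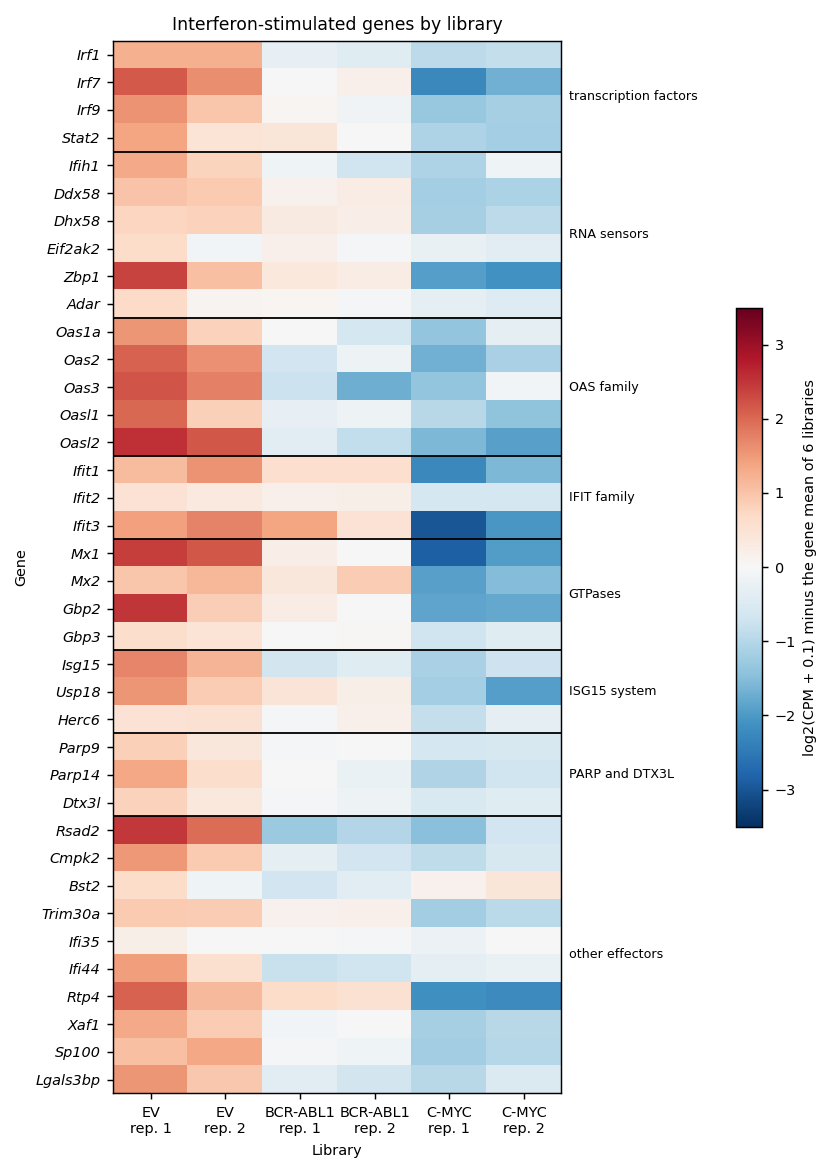
The colour gives log2(CPM + 0.1) minus the mean of the 6 libraries for each of the 38 interferon-stimulated genes (rows, by role) in each library (columns). The EV columns are reddest and the C-MYC columns bluest for most genes, and EV replicate 1 exceeds EV replicate 2 for 31 of 38.

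The number of genes lower in BCR-ABL1 than in EV rested on having both BCR-ABL1 libraries, since it was 8 without replicate 1 and 7 without replicate 2. Without EV replicate 1, 22 of the 25 remained called, all but Ifih1, Oas1a and Oasl1, but the median log2 fold change over the 38 genes shrank to -0.75. For C-MYC against EV the count stayed between 31 and 36 when any library was left out, and without EV replicate 1 it was 35, with a median of -2.03. For BCR-ABL1 against C-MYC the count of 20 fell to 8 without BCR-ABL1 replicate 1, 12 without BCR-ABL1 replicate 2, 8 without C-MYC replicate 1 and 10 without C-MYC replicate 2. The members called with each of the 6 libraries left out in turn numbered 6 of 25 in BCR-ABL1 against EV (Irf1, Oas3, Oasl2, Rsad2, Sp100 and Lgals3bp), 31 of 35 in C-MYC against EV (all but Ifih1, Adar, Oas1a and Ifi44), and 6 of 20 between the oncogenes (Irf7, Ddx58, Dhx58, Ifit3, Trim30a and Rtp4). Every other call of a member in these comparisons was lost without at least 1 library.

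Of the 4 transcription factors that carry the interferon response, 3 were lower in BCR-ABL1 than in EV, all 4 were lower in C-MYC than in EV, and all 4 were higher in BCR-ABL1 than in C-MYC. The shares over all genes tested were 12.0%, 24.5% and 11.9%, in that order. Irf9, the DNA-binding subunit of ISGF3, had 111 and 72.6 CPM in EV, 38.9 and 34.0 with BCR-ABL1 and 14.9 and 16.5 with C-MYC. The 3 groups did not overlap, with a log2 fold change of -1.34 ± 0.21 (SE) in BCR-ABL1 (edgeR adjusted p = 0.00522), -2.55 ± 0.22 in C-MYC (edgeR adjusted p = 0.000306), and a difference of 1.21 ± 0.21 between BCR-ABL1 and C-MYC (edgeR adjusted p = 0.00735). The call in BCR-ABL1 was lost without BCR-ABL1 replicate 2 (edgeR adjusted p = 0.0547). The call between the oncogenes was lost without BCR-ABL1 replicate 1, C-MYC replicate 1 or C-MYC replicate 2 (edgeR adjusted p = 0.0609, 0.0595 and 0.0503). Stat2, the subunit that supplies transcriptional activation to ISGF3, had 104 and 55.6 CPM in EV, 53.6 and 39.6 with BCR-ABL1 and 18.7 and 17.3 with C-MYC. EV replicate 2 lay just above the BCR-ABL1 libraries, and the log2 fold change of -0.77 ± 0.28 there did not pass (edgeR adjusted p = 0.103). It passed without the filter on low counts (edgeR adjusted p = 0.0318) and with a replicate block (edgeR adjusted p = 0.017). Without EV replicate 2 the estimate was -1.155, but that omission keeps only the higher EV library. The size of the fall thus depended on EV replicate 1. In C-MYC the log2 fold change of -2.15 ± 0.29 passed (edgeR adjusted p = 0.00124). Stat2 was 2.59-fold higher in BCR-ABL1 than in C-MYC (edgeR adjusted p = 0.014), a call lost without BCR-ABL1 replicate 1, C-MYC replicate 1 or C-MYC replicate 2 (edgeR adjusted p = 0.0972, 0.0794 and 0.101). Reads of Irf9 may be shared with Rnf31, whose exons overlap it on the same strand.

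Irf7, the factor that amplifies type I interferon production, had 12.7 and 8.95 CPM in EV, 2.80 and 3.20 with BCR-ABL1 and 0.506 and 0.808 with C-MYC. It was 3.60-fold lower in BCR-ABL1 than in EV (log2 -1.85 ± 0.29, edgeR adjusted p = 0.0057) and 16.3-fold lower in C-MYC (log2 -4.03 ± 0.35, edgeR adjusted p = 0.000306), and 4.53-fold higher in BCR-ABL1 than in C-MYC (edgeR adjusted p = 0.0056). The call in BCR-ABL1 was lost without BCR-ABL1 replicate 1 (edgeR adjusted p = 0.06). The exons of Irf7 overlap those of Phrf1 on the opposite strand, which had 17931 counts over the 6 libraries against 651 for Irf7, and the strand setting of the counting is not given in the sources used here. Irf1, the first-wave factor of interferon gamma, had replicates close together, with 261.9 and 263.0 CPM in EV, 90.5 and 82.4 with BCR-ABL1 and 58.7 and 62.7 with C-MYC. Its log2 fold changes were -1.60 ± 0.11 in BCR-ABL1 (edgeR adjusted p = 0.000367) and -2.11 ± 0.11 in C-MYC (edgeR adjusted p = 0.000156), and it was 1.43-fold higher in BCR-ABL1 than in C-MYC (edgeR adjusted p = 0.013). This last call was lost without any of the 4 libraries compared, with edgeR adjusted p between 0.0619 and 0.152.

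Among the 6 genes for RNA sensing and recognition, 3 were lower in BCR-ABL1 and 5 in C-MYC than in EV, and 3 were higher in BCR-ABL1 than in C-MYC. Over all genes tested these shares were 12.0%, 24.5% and 11.9%. Zbp1, a sensor of Z-form nucleic acid that can trigger necroptosis, had 62.3 and 25.3 CPM in EV, 15.6 and 14.6 with BCR-ABL1 and 3.08 and 2.69 with C-MYC. The groups did not overlap although the EV libraries were far apart, and Zbp1 was 5.22-fold higher in BCR-ABL1 than in C-MYC (log2 2.38 ± 0.41, edgeR adjusted p = 0.00711). That call was lost with limma on FPKM (adjusted p = 0.0663). It was also lost without C-MYC replicate 1 (log2 2.48) and without C-MYC replicate 2 (log2 2.29). Ddx58, which encodes the cytosolic RNA sensor RIG-I, had 39.5 and 37.5 CPM in EV, 22.0 and 23.5 with BCR-ABL1 and 8.55 and 9.07 with C-MYC, with a log2 difference of 1.37 ± 0.14 between BCR-ABL1 and C-MYC (edgeR adjusted p = 0.00132). Dhx58, the related helicase LGP2, was also 2.51-fold higher in BCR-ABL1 than in C-MYC (edgeR adjusted p = 0.00383). Ifih1, the sensor MDA5, had 11.7 and 7.94 CPM in EV and was lower in both groups, but its BCR-ABL1 libraries (4.12 and 2.78 CPM) overlapped its C-MYC libraries (2.11 and 4.13 CPM). Eif2ak2, the kinase PKR that halts translation on double-stranded RNA, passed in neither comparison with EV, with 76.6 and 45.2 CPM in EV, 55.4 and 46.7 with BCR-ABL1 and 40.5 and 36.7 with C-MYC. In C-MYC it passed with DESeq2 (adjusted p = 0.0445) and without the filter on low counts (edgeR adjusted p = 0.0219). Adar, the RNA-editing enzyme whose main promoter is constitutive, had log2 fold changes of -0.42 ± 0.18 in BCR-ABL1, which did not pass, and -0.80 ± 0.19 in C-MYC, which did (edgeR adjusted p = 0.0108).

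The OAS family encodes enzymes that make oligoadenylates to activate RNase L, and OAS-like proteins. All 5 members were lower in BCR-ABL1 and all 5 in C-MYC than in EV (12.0% and 24.5% of all genes tested). Between BCR-ABL1 and C-MYC 0 of the 5 were called in edgeR's test, with 2 at an unadjusted p below 0.05 and 0 by DESeq2. Of all genes tested, 11.9% were called higher and 11.5% lower there. Oasl2 passed between the oncogenes with a replicate block (edgeR adjusted p = 0.038). The 5 members lie in a pair of clusters on chr5, Oasl2 and Oasl1 at chr5:114896936-114937915 and Oas2, Oas3 and Oas1a at chr5:120730333-120907521 (GRCm38). Oasl2 had 8.13 and 6.23 CPM in EV, 0.948 and 0.665 with BCR-ABL1 and 0.368 and 0.269 with C-MYC. This was 8.89-fold lower in BCR-ABL1 than in EV (log2 -3.15 ± 0.34, edgeR adjusted p = 0.00133) and 22.2-fold lower in C-MYC (log2 -4.47 ± 0.38, edgeR adjusted p = 0.000306). Oas3 had 7.71 and 5.73 CPM in EV, 0.901 and 0.416 with BCR-ABL1 and 0.552 and 1.48 with C-MYC. Its BCR-ABL1 and C-MYC libraries overlapped, and it was 10.3-fold lower in BCR-ABL1 than in EV (log2 -3.36 ± 0.52, edgeR adjusted p = 0.00522). Oas2 had 3.69 and 2.63 CPM in EV, 0.474 and 0.706 with BCR-ABL1 and 0.184 and 0.314 with C-MYC, the last from 4 and 7 counts. It was 5.28-fold lower in BCR-ABL1 (edgeR adjusted p = 0.00737), a call lost without BCR-ABL1 replicate 1 (edgeR adjusted p = 0.0807) and without BCR-ABL1 replicate 2 (edgeR adjusted p = 0.053). Oas1a and Oasl1 had log2 fold changes of -1.51 ± 0.41 and -1.88 ± 0.47 with BCR-ABL1, and the C-MYC values were -2.02 ± 0.43 and -2.99 ± 0.53. Reads of the OAS paralogs may be split between them by the counting.

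The IFIT genes are a cluster at chr19:34550694-34650009 that encodes proteins binding viral RNA. None of the 3 was called lower in BCR-ABL1 than in EV by edgeR (0 at an unadjusted p below 0.05 and 0 by DESeq2). All 3 were lower in C-MYC than in EV, and all 3 were higher in BCR-ABL1 than in C-MYC. The shares over all genes tested were 12.0%, 24.5% and 11.9%, in that order. All 3 estimates in BCR-ABL1 against EV were still below 0, and for all 3 both BCR-ABL1 libraries lay below both EV libraries. Ifit3 had 65 and 89 counts in EV (3.04 and 3.72 CPM), 61 and 37 with BCR-ABL1 (2.89 and 1.54 CPM) and 1 and 4 with C-MYC (0.046 and 0.18 CPM). The summed counts per library size were 29.9 times higher in EV than in C-MYC (95% exact interval 12.6 to 93.5) and 19.1 times higher in BCR-ABL1 than in C-MYC (7.92 to 60.2). These intervals cover counting error only, and edgeR's adjusted p was 0.000845 and 0.00404. Ifit1 had 30 and 48 counts in EV, 20 and 23 with BCR-ABL1 and 1 and 3 with C-MYC, so that BCR-ABL1 was 10.5 times higher than C-MYC (95% exact interval 3.81 to 40.2, edgeR adjusted p = 0.00799). For Ifit1 that call was lost without BCR-ABL1 replicate 1 (edgeR adjusted p = 0.0582) and without C-MYC replicate 1 (edgeR adjusted p = 0.0605). Ifit2 was the best covered of the family, with 28.2 and 25.1 CPM in EV, 22.3 and 23.1 with BCR-ABL1 and 13.1 and 13.0 with C-MYC. Its log2 fold change was -0.23 ± 0.14 in BCR-ABL1 (edgeR adjusted p = 0.319), -1.03 ± 0.15 in C-MYC (edgeR adjusted p = 0.00142) and 0.80 ± 0.15 between BCR-ABL1 and C-MYC (edgeR adjusted p = 0.00833), the last lost without any of the 4 libraries compared (edgeR adjusted p between 0.0549 and 0.0793). Ifit3 has a near-identical neighbour, Ifit3b, so its counts are uncertain.

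**Figure D2:**
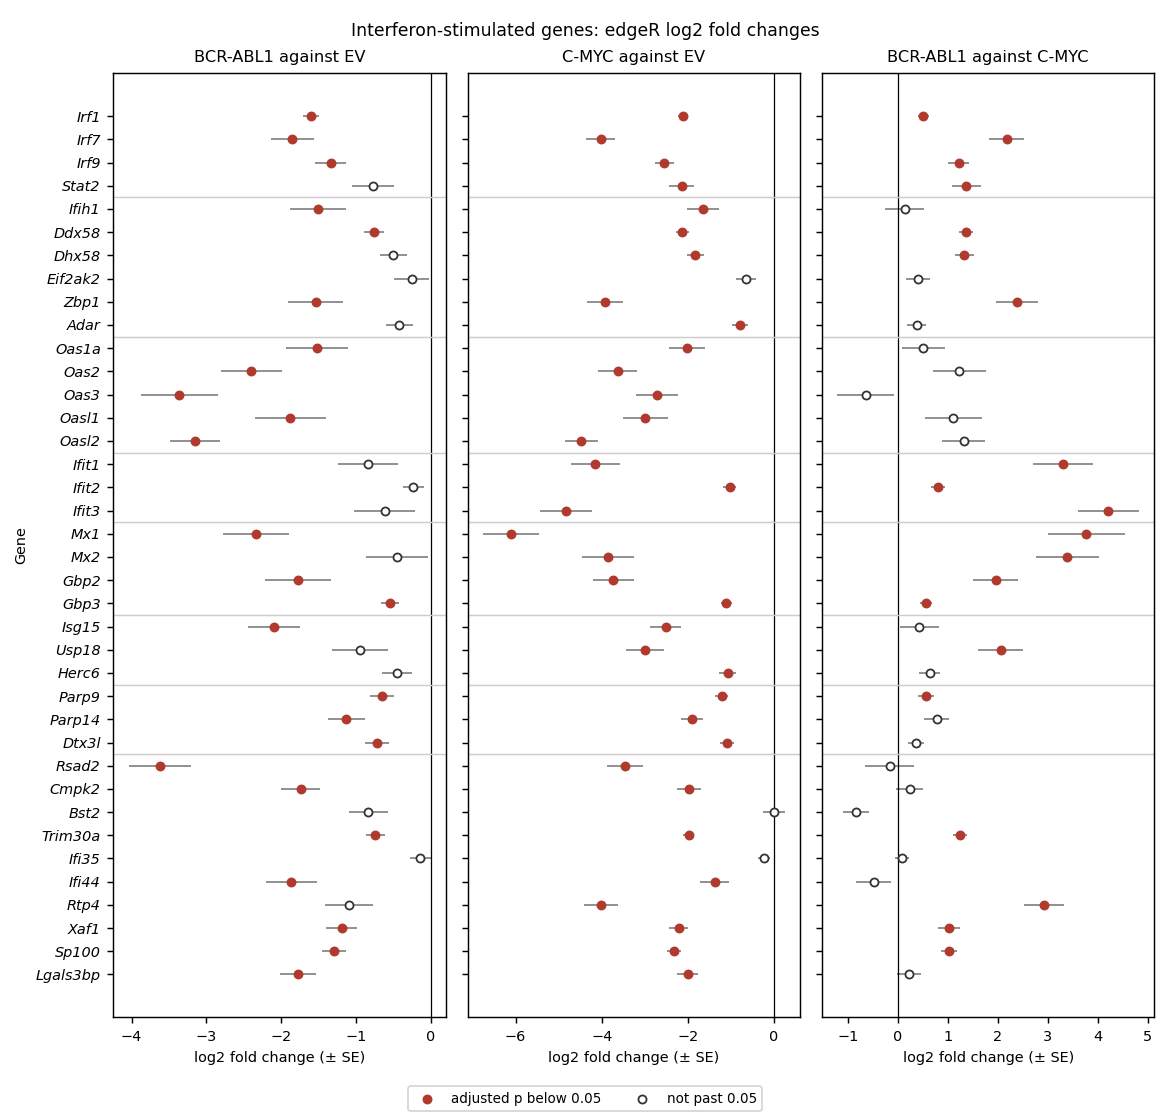
Each point is the edgeR log2 fold change of 1 of the 38 genes with its standard error, in BCR-ABL1 against EV, C-MYC against EV and BCR-ABL1 against C-MYC. Filled points have an adjusted p below 0.05 (25, 35 and 20 genes), and the IFIT points are unfilled in the first panel, at -0.84 for Ifit1, -0.23 for Ifit2 and -0.62 for Ifit3, with Ifit1 and Ifit3 beyond -4 in the second.

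All 4 antiviral GTPase genes were lower in C-MYC than in EV and higher in BCR-ABL1 than in C-MYC, and 3 were lower in BCR-ABL1 than in EV. Over all genes tested the shares were 24.5%, 11.9% and 12.0%, in that order. Mx1, whose C57BL/6 allele carries a deletion of coding exons, had 82 and 76 counts in EV, 16 and 15 with BCR-ABL1 and 0 and 2 with C-MYC. Its summed counts per library size were 76.8 times higher in EV than in C-MYC (95% exact interval 20.9 to 639, edgeR adjusted p = 0.000519) and 15.1 times higher in BCR-ABL1 than in C-MYC (95% exact interval 3.85 to 130, edgeR adjusted p = 0.0124). In BCR-ABL1, Mx1 was 5.05-fold lower than in EV (edgeR adjusted p = 0.0108). With limma on FPKM the Mx1 call between BCR-ABL1 and C-MYC was lost (adjusted p = 0.175). Single libraries also decided some of these Mx1 calls. BCR-ABL1 against EV was lost without either BCR-ABL1 library (edgeR adjusted p = 0.0804 and 0.113), and BCR-ABL1 against C-MYC was lost without BCR-ABL1 replicate 1 (edgeR adjusted p = 0.0789) and without C-MYC replicate 1 (edgeR adjusted p = 0.0572). Mx2, next to it on chr16, had 21 and 27 counts in EV, 13 and 22 with BCR-ABL1 and 1 and 2 with C-MYC, and was 11.4 times higher in BCR-ABL1 than in C-MYC (95% exact interval 3.59 to 57.8, edgeR adjusted p = 0.00861), a call lost without BCR-ABL1 replicate 2, C-MYC replicate 1 or C-MYC replicate 2 (edgeR adjusted p = 0.0671, 0.0728 and 0.058).

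Gbp2, a guanylate-binding protein that attacks pathogen vacuoles, had 612 and 194 CPM in EV, 128 and 109 with BCR-ABL1 and 30.0 and 30.6 with C-MYC. The EV libraries differed by 1.66 on the log2 scale, yet both lay above all others, and the log2 fold change was -1.77 ± 0.44 in BCR-ABL1 (edgeR adjusted p = 0.0307) and -3.73 ± 0.48 in C-MYC (edgeR adjusted p = 0.000955). The call in BCR-ABL1 was lost with limma on FPKM (adjusted p = 0.0803), with only the 4 libraries compared (edgeR adjusted p = 0.0681), and without either BCR-ABL1 library (0.114 and 0.17) or either C-MYC library (0.0633 and 0.063). Its neighbour Gbp3 (chr3:142560026-142573209) moved less, with 158 and 144 CPM in EV, 102 and 105 with BCR-ABL1 and 63.3 and 76.7 with C-MYC, and passed in all 3 comparisons. Between the oncogenes, the Gbp2 call (edgeR adjusted p = 0.019) was lost without any of the 4 libraries compared (0.0518 to 0.116), and that of Gbp3 (edgeR adjusted p = 0.0177) without BCR-ABL1 replicate 1, BCR-ABL1 replicate 2 or C-MYC replicate 1 (0.11, 0.119 and 0.112). In BCR-ABL1 against EV, Gbp3 was lost without either BCR-ABL1 library (edgeR adjusted p = 0.181 and 0.152).

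**Figure D3:**
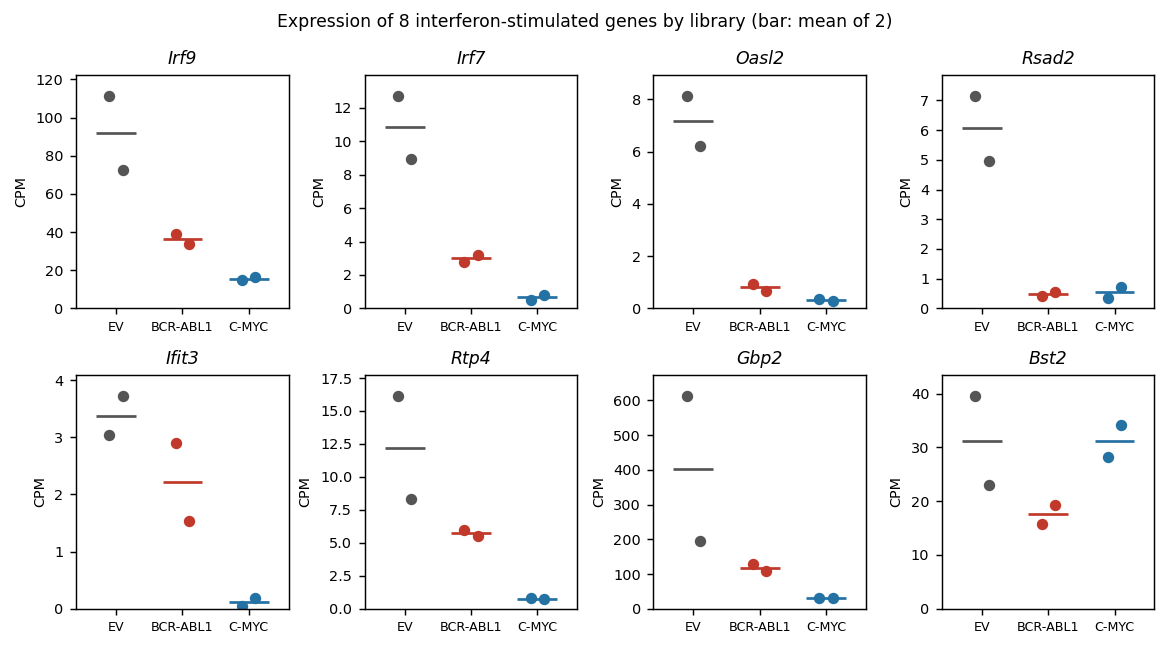
CPM of 8 of the genes in each of the 6 libraries, with points for libraries and bars for the mean of 2; every axis starts at 0. Irf9, Irf7, Oasl2, Rtp4 and Gbp2 are highest in EV and lowest in C-MYC, Rsad2 is near 0.5 CPM in both oncogene groups, Ifit3 is near 0 in C-MYC alone, and Bst2 in C-MYC lies within its EV range.

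Of the ISG15 system, 1 of 3 genes was lower in BCR-ABL1 and 3 of 3 were lower in C-MYC than in EV (12.0% and 24.5% of all genes tested). Isg15, the ubiquitin-like modifier, had 5.28 and 3.64 CPM in EV, 0.948 and 1.12 with BCR-ABL1 and 0.644 and 0.898 with C-MYC. It was 4.28-fold lower in BCR-ABL1 than in EV (edgeR adjusted p = 0.00694), a call lost without BCR-ABL1 replicate 1 (edgeR adjusted p = 0.0723) or replicate 2 (edgeR adjusted p = 0.0598), and 5.74-fold lower in C-MYC (edgeR adjusted p = 0.0015). The oncogene groups did not differ for Isg15 beyond their spread (log2 0.42 ± 0.39, edgeR adjusted p = 0.475). Usp18, which removes ISG15 and restrains the type I receptor, had 4.53 and 2.84 CPM in EV, 2.09 and 1.75 with BCR-ABL1 and 0.598 and 0.314 with C-MYC. It differed between the oncogenes by 4.17-fold (edgeR adjusted p = 0.0159), with BCR-ABL1 the higher, a call lost with limma on FPKM (0.0717) and without BCR-ABL1 replicate 1, BCR-ABL1 replicate 2 or C-MYC replicate 2 (edgeR adjusted p = 0.103, 0.0582 and 0.109). Herc6, the main mouse ISG15 ligase, had a log2 fold change of -1.08 ± 0.20 in C-MYC and one of -0.44 ± 0.20 in BCR-ABL1, which did not pass.

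Parp9, Parp14 and Dtx3l lie together at chr16:35832874-35972605 and encode ADP-ribosyltransferase family members and an E3 ligase partner. All 3 were lower in BCR-ABL1 and in C-MYC than in EV (12.0% and 24.5% of all genes tested). Parp14 went from 172 and 103 CPM in EV to 68.6 and 57.5 with BCR-ABL1 and 32.3 and 41.4 with C-MYC. Their log2 fold changes ran from -1.13 to -0.65 in BCR-ABL1 and from -1.90 to -1.08 in C-MYC. All 3 calls in BCR-ABL1 were lost without either BCR-ABL1 library, with edgeR adjusted p between 0.0706 and 0.176. Parp9 and Dtx3l overlap at their ends on opposite strands, so their reads cannot be fully told apart.

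Among the 10 other effectors, 7 were lower in BCR-ABL1 and 8 in C-MYC than in EV (12.0% and 24.5% of all genes tested). Rsad2, which encodes the antiviral radical-SAM enzyme viperin, had the most negative BCR-ABL1 estimate of the 38 genes, with 7.15 and 4.97 CPM in EV, 0.427 and 0.540 with BCR-ABL1 and 0.368 and 0.719 with C-MYC. It was 12.3-fold lower in BCR-ABL1 (log2 -3.62 ± 0.41, edgeR adjusted p = 0.00162) and 11.0-fold lower in C-MYC (log2 -3.46 ± 0.41, edgeR adjusted p = 0.000707), and the oncogene groups overlapped. Cmpk2, its neighbour on chr12 and a mitochondrial nucleotide kinase, had 27.8 and 18.1 CPM in EV and between 5.15 and 7.68 CPM in the 4 oncogene libraries. Rtp4, a receptor-transporting protein that binds viral RNA, separated the oncogenes, with 16.1 and 8.32 CPM in EV, 5.97 and 5.48 with BCR-ABL1 and 0.781 and 0.719 with C-MYC. Its log2 fold change was -1.09 ± 0.32 in BCR-ABL1 (edgeR adjusted p = 0.0554), -4.01 ± 0.39 in C-MYC (edgeR adjusted p = 0.000418), and 2.92 ± 0.39 between BCR-ABL1 and C-MYC (edgeR adjusted p = 0.00308). The fall of Rtp4 in BCR-ABL1 passed without the filter on low counts (edgeR adjusted p = 0.0181) and with DESeq2 (adjusted p = 0.0343). Without EV replicate 2 the estimate was -1.49, but that omission keeps only the higher EV library. The size of this fall thus depended on EV replicate 1. Trim30a, Sp100 and Xaf1 were likewise higher in BCR-ABL1 than in C-MYC, by 2.37-, 2.03- and 2.04-fold. The Xaf1 call was lost without any of the 4 libraries compared (edgeR adjusted p between 0.0706 and 0.098) and the Sp100 call without BCR-ABL1 replicate 1 (0.0523).

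Bst2 and Ifi35 were the effectors that did not pass in C-MYC against EV. Bst2, the tetherin that holds budding virions at the membrane, had 39.6 and 23.0 CPM in EV, 15.8 and 19.2 with BCR-ABL1 and 28.2 and 34.2 with C-MYC. Its log2 difference between C-MYC and EV was -0.00 ± 0.26 (edgeR adjusted p = 0.996), and between BCR-ABL1 and C-MYC it was -0.83 ± 0.26 (edgeR adjusted p = 0.0542), a difference called by DESeq2. Ifi35, a protein that partners NMI, ranged only from 27.0 to 36.1 CPM over the 6 libraries. Lgals3bp, a secreted glycoprotein, and Ifi44 were lower than in EV in both groups, and their log2 differences between BCR-ABL1 and C-MYC, 0.23 ± 0.24 and -0.49 ± 0.35, did not pass.

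Levels of different genes were compared only per length, as FPKM. In EV, 19 of the 38 genes lay above the median of the genes tested (9.47 FPKM), against 16 in BCR-ABL1 (median 8.65 FPKM) and 9 in C-MYC (median 8.05 FPKM). The median FPKM of the 38 genes came to 9.51, 5.55 and 3.32 across EV, BCR-ABL1 and C-MYC. Gbp2 had the highest mean level in BCR-ABL1 (43.0 FPKM), and Bst2 had it in C-MYC (31.8 FPKM). In EV the order at the top differed between libraries, since Gbp2 was at 232 FPKM and Irf1 at 103 FPKM in replicate 1 but Gbp2 was at 75.0 FPKM and Irf1 at 105 FPKM in replicate 2, and Oas2 was lowest there, at 0.662 FPKM. The genes that all but lost their reads in C-MYC were thus weakly expressed in EV as well: Mx1, Ifit1 and Mx2 had mean levels of 0.703, 0.724 and 0.809 FPKM there. The FPKM of Xaf1 departed from its counts per exon length by over 4 times and was given no rank.

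Outside the 38 genes, a list of 110 other genes of interferon signalling had 108 in the table and 87 tested. In BCR-ABL1, 38 were lower than in EV and 1 (Cish) was higher, against 12.0% and 5.08% of all genes tested. In C-MYC, 68 were lower and 1 (Traf3) was higher, against 24.5% and 18.6%. Between the oncogenes, 32 were higher in BCR-ABL1 and 5 were lower, against 11.9% and 11.5%. The median log2 fold changes over the 87 genes were -0.625, -1.33 and 0.65 in these comparisons, in that order. Leaving out BCR-ABL1 replicate 1 or 2 reduced the 39 calls against EV to 10 or 7. The 37 calls between the oncogenes became 17, 22, 23 and 24 without BCR-ABL1 replicates 1 and 2 and C-MYC replicates 1 and 2, and 60 and 61 without EV replicates 1 and 2.

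Interferon genes themselves gave few reads or none. Of 20 interferon genes, 15 had 0 counts in all 6 libraries, Ifnb1 had 2 counts in EV replicate 1 and 0 elsewhere, and only Ifng had enough reads to be tested. Ifng, which T and NK cells secrete, had 17 and 26 counts in EV, 2 and 1 with BCR-ABL1 and 1 and 0 with C-MYC. Per library size it was 14.3 times higher in EV than in BCR-ABL1 (95% exact interval 4.57 to 72.0, edgeR adjusted p = 0.0114) and 41.8 times higher than in C-MYC (95% exact interval 7.11 to 1688, edgeR adjusted p = 0.00266). Ifng fell beside the T and NK cell markers given above, and the part of either in the other results was not tested.

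Interferon receptor genes were lower in C-MYC than in EV. None of 6 passed in BCR-ABL1 against EV by edgeR, with 1 higher (Ifngr2) at an unadjusted p below 0.05 and by DESeq2. In C-MYC, 5 of 6 were lower than in EV (24.5% of all genes tested). Between the oncogenes, 3 of 6 were higher in BCR-ABL1 (11.9% of all genes tested). Ifnar1, a subunit of the type I receptor, had 145 and 119 CPM in EV, 146 and 113 with BCR-ABL1 and 63.3 and 56.4 with C-MYC. It was 2.15-fold higher in BCR-ABL1 than in C-MYC (log2 1.11 ± 0.16, edgeR adjusted p = 0.00404), and its BCR-ABL1 and EV libraries overlapped. Ifnar2, the other subunit, was 1.48-fold lower in C-MYC than in EV (edgeR adjusted p = 0.0286), a call lost without EV replicate 1, C-MYC replicate 1 or C-MYC replicate 2 (edgeR adjusted p = 0.0819, 0.0704 and 0.167). Jak1, the kinase shared by the receptors, had 265 and 256 CPM in EV, 298 and 283 with BCR-ABL1 and 148 and 161 with C-MYC, a difference of 1.88-fold between the oncogenes (edgeR adjusted p = 0.00147). Tyk2, the second kinase of the type I receptor, had 49.5 and 61.5 CPM in EV and between 36.9 and 45.0 CPM in the 4 oncogene libraries. Its fall passed narrowly in C-MYC (log2 -0.47 ± 0.16, edgeR adjusted p = 0.0498) and did not pass in BCR-ABL1 (log2 -0.44 ± 0.16, edgeR adjusted p = 0.109). In BCR-ABL1 it passed with a replicate block (edgeR adjusted p = 0.0229). The estimate there was -0.58 without EV replicate 1, an omission that keeps only the higher EV library. The C-MYC call was lost by DESeq2 (adjusted p = 0.0693), with its size factors (edgeR adjusted p = 0.0668) and with limma on FPKM (adjusted p = 0.0546). It was lost too with only the 4 libraries compared (edgeR adjusted p = 0.104), and when any library other than EV replicate 1 was left out.

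Among other regulatory factors, Irf3, the constitutive partner of the RNA sensors, had between 39.3 and 52.0 CPM in all libraries and passed in no comparison. Irf8, a factor of B and myeloid cells, was 1.93-fold lower in BCR-ABL1 (edgeR adjusted p = 0.0207) and 1.72-fold lower in C-MYC (edgeR adjusted p = 0.02) than in EV. The Irf8 calls were lost without either BCR-ABL1 library in the first case (edgeR adjusted p = 0.102 and 0.13) and without EV replicate 1 or C-MYC replicate 2 in the second (0.0514 and 0.125).

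**Figure D4:**
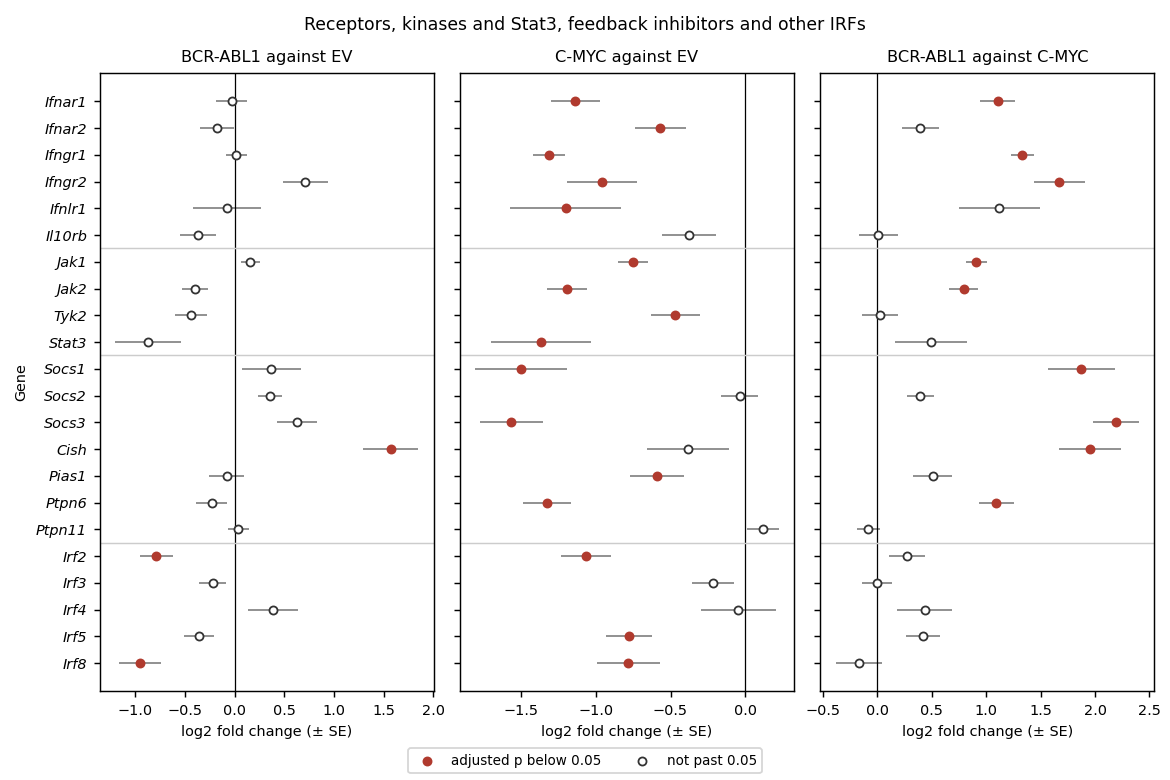
The edgeR log2 fold change with its standard error for the receptors, kinases and Stat3, feedback inhibitors and other IRFs that were tested; filled points have an adjusted p below 0.05. In the first panel the 6 receptors are unfilled and Cish is the only filled point above 0, and in the second 5 of the 6 receptors are filled below 0.

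Of 7 feedback inhibitors of cytokine signalling, 1 was higher and 0 were lower in BCR-ABL1 than in EV by edgeR (0 lower at an unadjusted p below 0.05 and by DESeq2). In C-MYC, 4 were lower than in EV, and 4 were higher in BCR-ABL1 than in C-MYC. Of all genes tested, 5.08% were higher and 12.0% lower in BCR-ABL1 than in EV. The shares lower in C-MYC than in EV and higher in BCR-ABL1 than in C-MYC were 24.5% and 11.9%. Cish, a SOCS family gene induced by STAT5, had 50.5 and 99.0 CPM in EV, 233 and 212 with BCR-ABL1 and 62.9 and 51.9 with C-MYC. It rose 2.97-fold over EV in BCR-ABL1 (log2 1.57 ± 0.28, edgeR adjusted p = 0.00892) and had a log2 fold change of -0.38 ± 0.28 in C-MYC, which did not pass. Socs1, the main inhibitor of interferon receptor signalling, had 107 and 62.0 CPM in EV, 131 and 88.2 with BCR-ABL1 and 35.2 and 24.6 with C-MYC. Socs1 was 3.66-fold higher in BCR-ABL1 than in C-MYC (edgeR adjusted p = 0.00593) and overlapped EV, and that call was lost without C-MYC replicate 2 (edgeR adjusted p = 0.056).

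The other interferon-stimulated genes of the list gave 30 of 48 lower in BCR-ABL1 and 42 of 48 lower in C-MYC than in EV. Compared directly, 20 were higher and 3 lower in BCR-ABL1 than in C-MYC. The shares over all genes tested were 12.0%, 24.5%, 11.9% and 11.5%, in that order. The immunity-related GTPase Iigp1 fell furthest in C-MYC, with 390 and 49.5 CPM in EV, 10.6 and 7.94 with BCR-ABL1 and 0.322 and 1.80 with C-MYC. Its EV libraries lay far apart, and the log2 fold changes of -4.57 ± 0.91 and -7.68 ± 1.14 carry that spread. Gbp6 also differed between the EV libraries, at 146 and 32.0 CPM in EV against 3.46 and 2.78 with BCR-ABL1 and 0.598 and 2.74 with C-MYC. Gbp10 had 85 and 18 counts in EV and at most 2 in any other library. Slfn1, of the Schlafen family, had 223 and 164 counts in EV, 20 and 7 with BCR-ABL1 and 1 and 10 with C-MYC. In BCR-ABL1 against EV the calls of Iigp1 and Gbp10 were lost without either BCR-ABL1 library. Those of Gbp6 and Slfn1 were lost there without BCR-ABL1 replicate 2. The Gbp10 call in C-MYC against EV was lost without either C-MYC library.

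Not every gene of this family was lower in BCR-ABL1 than in EV. Slfn2 had 188 and 240 CPM in EV, 300.3 and 269 with BCR-ABL1 and 56.6 and 49.4 with C-MYC, so that BCR-ABL1 exceeded C-MYC by 5.37-fold (log2 2.42 ± 0.15, edgeR adjusted p = 0.000302), and Slfn5 differed in the same direction by 7.63-fold (edgeR adjusted p = 0.00506). Ifit3b, the neighbour of Ifit3, had 11 and 14 counts with BCR-ABL1 and 1 and 0 with C-MYC. Ifi204, Ifitm3 and Samhd1 ran the other way between the oncogenes. Ifi204, a DNA sensor prominent in myeloid cells, had 8.51 and 10.5 CPM in EV, 0.237 and 0.665 with BCR-ABL1 and 1.24 and 2.29 with C-MYC (log2 -1.93 ± 0.51 between BCR-ABL1 and C-MYC, edgeR adjusted p = 0.0305). Samhd1, the dNTP hydrolase that starves retroviral reverse transcription, had 170 and 136 CPM in EV, 24.1 and 25.1 with BCR-ABL1 and 33.7 and 42.8 with C-MYC, and was 1.55-fold lower in BCR-ABL1 than in C-MYC (edgeR adjusted p = 0.0291). Ifitm3, which blocks viral entry, was 2.66-fold lower in BCR-ABL1 than in C-MYC (edgeR adjusted p = 0.0399). All 3 of these calls were lost with limma on FPKM (adjusted p between 0.0646 and 0.108) and without BCR-ABL1 replicate 1 or C-MYC replicate 2 (edgeR adjusted p between 0.0962 and 0.187). Without BCR-ABL1 replicate 2, Samhd1 and Ifitm3 were lost too (0.12 and 0.188), and without C-MYC replicate 1 Ifitm3 was (0.187). The summed myeloid markers were also lower in BCR-ABL1 (154 to 177 CPM) than in C-MYC (233 to 394 CPM), and their part in these differences was not tested. Traf3, an adaptor of interferon induction and the gene higher in C-MYC than in EV, had 65.1 and 70.9 CPM in EV, 71.4 and 68.8 with BCR-ABL1 and 105 and 95.2 with C-MYC. Its call in C-MYC against EV was lost without C-MYC replicate 1.

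**Figure D5:**
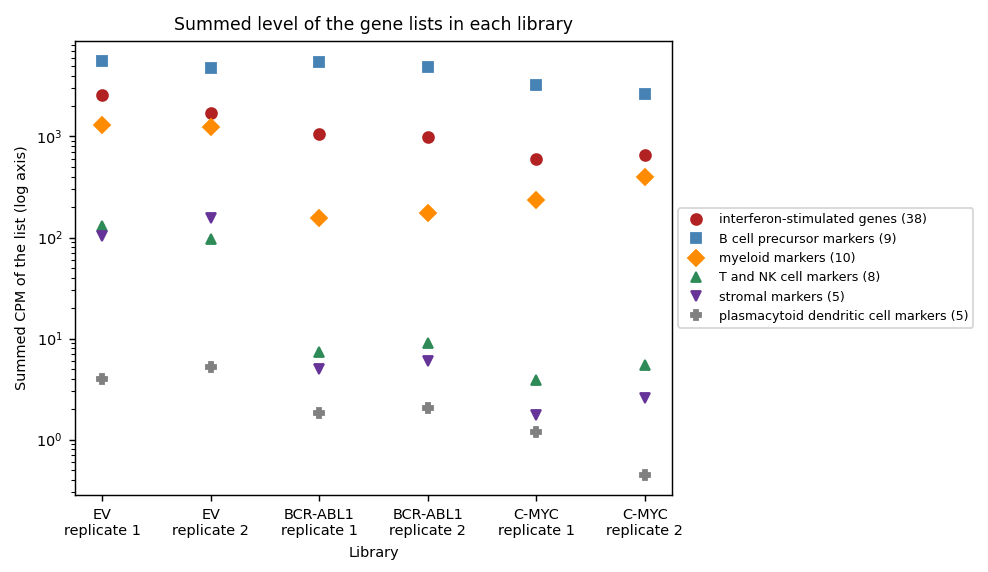
The summed CPM (log axis) of the 38 interferon-stimulated genes and of 5 lists of cell type markers in each of the 6 libraries. The interferon-stimulated genes step down from EV (1704 to 2582 CPM) to BCR-ABL1 (981 to 1066) and C-MYC (596 to 655), while myeloid, T and NK cell and stromal markers drop from EV to both oncogene groups and the B cell precursor sum is lowest in C-MYC.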

How the data were processed

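Poly(A) RNA of EV, BCR-ABL1 and C-MYC cells was sequenced in 2 libraries per group. The authors used STAR (version 2.5.0) with UCSC known genes to align reads to the build GRCm38/mm10, and the deposited counts are whole, unnormalized numbers per gene symbol. The counting program and its strand setting are not given in the sources used here. The FPKM values deposited by the authors came from StringTie version 1.3.0. Multimapping and overlapping genes can therefore shift reads between paralogs and neighbours. The ChIP-seq tracks and the authors' DESeq2 results were not used here.

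Counts were analysed with edgeR 4.0.16 in R 4.3.3. Genes that passed filterByExpr (12786 of 24421) were scaled by TMM and fitted with glmQLFit over all 6 libraries without a covariate, with glmQLFTest and Benjamini-Hochberg adjustment over all genes tested. The standard error is the absolute log2 fold change divided by the square root of F. CPM values are TMM-scaled. The common biological coefficient of variation was 0.151, so replicate spread limited precision more than depth for genes with many reads, but not for those with few. Ratios of counts of 5 or fewer have 95% exact intervals for counting error only. In simulated counts, C-MYC against EV recovered 69% of genes changed by 1 on the log2 scale and 98% of those changed by 2, and called 15 unchanged genes of 12564 tested. The changed genes were drawn only from those above a floor of mean counts. The recovery rates therefore do not cover members with few reads, such as Ifit1.

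Groups and replicate numbers came from the labels. The members and all lists were chosen with earlier results of these data known. Named genes were Stat2, Irf9, Irf7, Irf1 and the 6 members per direction and comparison with the largest change among those called with a mean of at least 20 counts. They also included 7 fixed pathway genes (Ifnar1, Ifnar2, Jak1, Tyk2, Socs1, Irf3 and Irf8) and the 3 pathway genes per direction. Other genes named, among them the further members described by role, Ifngr2, Ifnb1 and the genes whose sequence is shown, were chosen after their values were seen. Of the lists, 1 pathway gene and 1 B cell marker are not reported here and were left out of counts and sums over lists. Gene positions are from GENCODE M21 on GRCm38, and promoter sequences are RefSeq's. Alternatives were DESeq2 1.42.0 (its size factors and its test), no filter on low counts, limma 3.58.1 on log2(FPKM + 1), a replicate block, only the 4 libraries compared, each library left out, counts per kilobase in place of FPKM, and only bases before the gene start for motifs. Python 3.11.15 was used for tables and figures.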

Additional observations from a re-analysis of the deposited data

How the results depend on the processing

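No median over the 38 genes reversed under any alternative run, and the estimates that changed sign among the 38 members and the 19 pathway genes run singly passed neither in the reported fit nor in the alternative. With DESeq2's size factors, members called lower than EV stayed at 25 in BCR-ABL1 and 35 in C-MYC, and over the alternatives that kept all 6 libraries they ranged from 22 to 28 and from 35 to 36. The medians over the 38 genes moved toward 0 with limma on log2(FPKM + 1), to -0.79 for BCR-ABL1 against EV, -1.33 for C-MYC against EV and 0.487 between the oncogenes, a scale that understates changes of low genes. For C-MYC against EV the median over all genes was -0.08 in the fit reported, -0.11 without the filter on low counts and -0.12 with limma. The number of members lower in BCR-ABL1 than in C-MYC went from 0 to 1 (Bst2) without the filter, with DESeq2's test, with the replicate block and with only the 4 libraries compared; the last setting also gave 60 pathway genes and 4538 genes in all, against 37 and 2991.

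Leaving out each library in turn, where a lone library is assumed to vary like the other groups, gave these ranges. For BCR-ABL1 against EV, members lower ranged from 7 to 31, members higher from 0 to 0, pathway genes called from 7 to 51, all genes called from 665 to 2729, and the median from -1.42 to -0.75. For C-MYC against EV the ranges were 31 to 36, 0 to 0, 55 to 71, 3329 to 6077, and -2.31 to -2.03. For BCR-ABL1 against C-MYC, members higher ranged from 8 to 25, members lower from 0 to 1, pathway genes from 17 to 61, all genes from 618 to 4519, and the median from 0.856 to 1.04. Of the values of the 38 members in the 3 comparisons under these omissions, 561 kept their direction and side of the threshold, 94 lost the call, 19 gained one and 10 changed sign, and under the other alternatives the numbers were 642, 10, 27 and 5. For the 19 pathway genes they were 286, 42, 5 and 9, and 323, 8, 7 and 3.

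The log2 estimate of Bst2 in C-MYC against EV (-0.00 in the fit reported) was 0.041 with DESeq2's size factors, 0.012 without the filter, 0.049 with DESeq2's test, 0.012 with the replicate block and 0.053 with only the 4 libraries compared. With limma, Traf3 in BCR-ABL1 against EV was -0.028, and between the oncogenes Gbp10 was 0.217 and Irf3 was 0.028. When each library was left out, estimates that changed sign ranged, in BCR-ABL1 against EV, from -0.58 to 0.18 for Eif2ak2, -0.82 to 0.029 for Ifit3b, -0.22 to 0.14 for Ifnar1, -0.57 to 0.11 for Slfn5 and -0.012 to 0.11 for Traf3. In C-MYC against EV they ranged from -0.34 to 0.44 for Bst2 and -0.78 to 0.19 for Cish. Between the oncogenes they ranged from -0.26 to 0.70 for Ifih1, -1.28 to 0.24 for Oas3, -0.56 to 0.40 for Rsad2, -0.00016 to 0.19 for Ifi35, -0.061 to 0.047 for Irf3 and -0.13 to 0.17 for Tyk2.

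Same-numbered libraries deviated together (r = 0.273 for EV and BCR-ABL1, 0.236 for EV and C-MYC and 0.204 for BCR-ABL1 and C-MYC over 12786 genes), but with 2 numbers per group they were taken to share only a number. With the replicate block, 28 members were lower in BCR-ABL1 and 36 in C-MYC than in EV, 23 were higher and 1 lower in BCR-ABL1 than in C-MYC, and all genes called numbered 3224, 6631 and 4278. The block added calls for Stat2, Rtp4 and Bst2 in BCR-ABL1 against EV (edgeR adjusted p = 0.017, 0.0194 and 0.0477). Members above the median level by counts per kilobase were 17, 15 and 10 in EV, BCR-ABL1 and C-MYC, and counting only bases before the start left 11 members with an ISRE and 5 with a GAS. At this depth genes with under 5 counts per library, such as Mx1, Mx2, Ifit1 and Ifit3 in C-MYC, have ratios known only within wide counting intervals.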
